A study of Arabidopsis thaliana with 36 samples.

Results

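Transcript levels at midday (12pm) were compared with levels at midnight (12am) in Arabidopsis plants that overexpress the clock gene CIRCADIAN CLOCK ASSOCIATED 1 (CCA1-ox, Columbia background). The comparison used 18 of the 36 arrays of the series, which are 6 of its 12 extracts. Each extract is 1 harvest, given by a time and a replicate number, and was split on a sucrose gradient into a non-polysomal, a small polysomal and a large polysomal fraction. The fractions went onto separate arrays, and the 3 log2 values of an extract were averaged to give 1 level per extract. Such a level counts the fractions equally, whatever share of the RNA each held, and is not the amount of total RNA.

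The tissue was the aerial part of 10-day-old plants grown on agar with full-strength Murashige and Skoog salts and 1% sucrose, under days of 16 h light, which began at 6am, and nights of 8 h. The 3 extracts of 12pm (Zeitgeber time 6) were taken after 6 h of light, and the 3 extracts of 12am (Zeitgeber time 18) after 2 h of dark, 12 h apart. Extracts of 6am and 6pm, 3 each, were used to estimate the spread and to place the levels in the day. Every group carries the CCA1 transgene, the labels do not give its promoter, and wild-type plants are not analysed here. No value below therefore separates the effect of the transgene from that of the day. The labels do not say whether the replicates are separately grown plants, and the p-values cover only the variation among these extracts, which may be partly technical.

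Plants drive photosynthesis, carbon export and much of their specialised metabolism in the light, and live on stored starch in the dark. Light acts through photoreceptors and the transcription factors below them, and sugar acts through kinases that sense energy supply. A clock adds its own rhythm: CCA1 is a MYB-type factor of the morning that represses genes expressed in the evening. Plants that overexpress it are known to lose rhythms in constant conditions, while cycles of light and dark can still drive their transcripts.

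Over all 22810 probe sets, 12635 passed the filter on low values. A listed gene counts as measured, here and below, only where a kept probe set names it and no other gene. As 5548 of the kept probe sets name no gene, a listed gene that was not measured may still be expressed. Counts and medians of lists cover only the measured part. Within 12pm the 3 extracts correlated with r between 0.983 and 0.994, and within 12am with r between 0.985 and 0.992. All 3 measured markers of leaf mesophyll, of 8 listed, stood near the top of the scale, and 1 of them, PSAN, was called (below). LHCB4.2, a light-harvesting antenna protein, averaged 14.10 at 12pm and 14.02 at 12am on the log2 scale, and RCA (Rubisco activase) 13.48 and 13.81. PYK10, a beta-glucosidase known for its abundance in roots and seedlings, was also high, at 11.53 at 12pm and 11.85 at 12am. FMA, a regulator of guard cell fate, averaged 6.17 and 6.45, and the seed transcript M17 8.65 and 7.95. These were the 1 measured marker each of root, guard cells and seed, of 9 listed for each, and 0 of the 10 listed for vascular tissue were measured. None of the 5 genes with values here was called in limma, 0 of 5 also at an unadjusted p below 0.05, and their part in the results below was not tested. M17 was called without replicate 1 (1.20, adjusted p = 0.041), RCA without replicate 3 (-0.52, adjusted p = 0.047) and PYK10 without replicate 3 of 12pm (-0.49, adjusted p = 0.040). In such bulk samples, fewer cells of a type and less RNA per cell cannot be told apart.

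On the deposited scale, close to equal numbers of transcripts were higher at midday and at midnight. Of the 12635 probe sets, 5908 (46.8%) were called at an adjusted p below 0.05 in limma, 3060 (24.2%) higher at 12pm and 2848 (22.5%) lower. Of those called, 1869 (14.8% of all tested) differed at least 2-fold, with 997 higher and 872 lower, and 184 and 188 differed at least 4-fold. The median difference of all probe sets was 0.02 on the log2 scale. The deposited values place all arrays on 1 common distribution, so near-equal counts and a median near 0 are partly set by the normalization. With arrays shifted to equal spike-in signal instead, which itself varied among the extracts of a time (below), 1007 were called higher and 460 lower. On the deposited scale without replicate 2 of all times, 3345 were called, 1726 higher and 1619 lower. Counted over 6800 genes with 1 probe set each, 24.2% were called higher and 21.8% lower, and these shares are the background for every list below. Without regard to any test, 29.4% of the probe sets had every 12pm extract above every 12am extract, and 27.6% the reverse. With so large a background, a list with 1 or 2 called members does not stand apart.

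**Figure D1:**
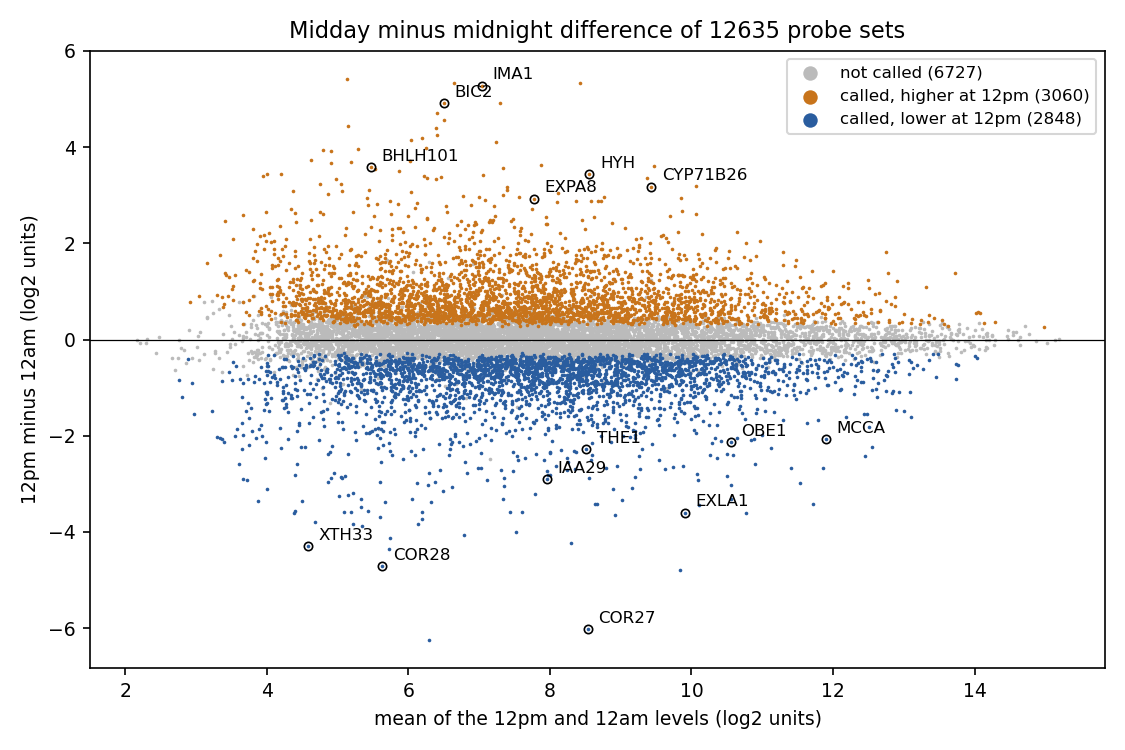
Difference between 12pm and 12am (12pm minus 12am, log2 units, vertical axis) against the mean level of both times (log2 units, horizontal axis), 1 point per probe set, coloured by call. COR27 lies lowest among the marked genes at -6.02 and AT1G47400 (IMA1) highest at 5.28, and 6727 probe sets between them were not called.

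The largest difference of any named gene was that of COR27 (AT5G42900), a cold- and clock-regulated gene whose protein is known to repress evening genes of the clock. Its level was 5.35, 5.50 and 5.71 in the 12pm extracts, against 11.72, 11.53 and 11.39 in the 12am extracts. All midday extracts lay far below all midnight extracts, a 65.1-fold difference (log2 -6.02 ± 0.15, SE, n = 3 each, adjusted p = 7.1e-11 in limma). AT4G33980, known as COR28 and related to it, had levels of 2.95, 3.31 and 3.55 at 12pm, against 8.42, 8.04 and 7.50 at 12am. These midday values lie near the lower end of the scale, which starts at 2.15, so the 26.3-fold difference (-4.72 ± 0.23) may be compressed. Both measured clock output genes were thus lower at midday.

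Among core clock genes, GIGANTEA (GI, AT1G22770), which acts in the evening loop of the clock and in day-length sensing, reached 8.01, 8.09 and 7.85 at 12pm, against 6.96, 6.56 and 7.09 at 12am. The groups did not overlap and the level was 2.16-fold higher at midday (1.11 ± 0.17, adjusted p = 0.00016). REVEILLE 6 (AT5G52660), a MYB-like factor related to CCA1, was 1.87-fold higher (0.91 ± 0.14), with 6.38, 6.62 and 6.78 at 12pm against 5.67, 5.88 and 5.50 at 12am. The list of clock genes had 26 entries, of which these 2 were measured under a name. CCA1 itself is not analysed here, so the transgene was not checked in these extracts.

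Light-signalling genes gave some of the largest rises. HYH (AT3G17609), a bZIP factor that acts beside HY5 in responses to light, had levels of 10.23, 10.30 and 10.32 in the 12pm extracts, against 6.80, 7.56 and 6.15 in the 12am extracts. The midday values were nearly equal while the midnight values spread over more than 1 log2 unit, and the groups stood 10.9-fold apart (3.44 ± 0.27, adjusted p = 4.2e-07). AT3G44450, known as BIC2 and an inhibitor of the blue-light receptors called cryptochromes, was 30.2-fold higher (4.92 ± 0.22), with 9.01, 8.85 and 9.02 at 12pm against 4.24, 4.41 and 3.48 at 12am. Its midnight mean of 4.04 lies under 5, where differences between low values are compressed and folds are less certain. The same applies below to BHLH101 (3.68 at 12am), AFR (3.75), CHIL (4.22), GH9B8 (4.61) and SNZ (4.71), and to FHL (4.83 at 12pm), UGT85A4 (4.77) and ALN (4.79). AT3G52740 of the same list was 12.3-fold higher. FHL (AT5G02200), which helps to bring phytochrome A into the nucleus, went the other way, with 4.88, 4.89 and 4.71 at 12pm and 6.66, 6.11 and 7.63 at 12am (-1.97 ± 0.32, adjusted p = 0.00022). Of the 4 measured members of this list, 3 were thus higher and 1 lower. AFR (AT2G24540), an F-box protein of the response to far-red light that is not on the list, was 11.7-fold higher at 12pm (3.55 ± 0.12) and was picked with its value in view.

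**Figure D2:**
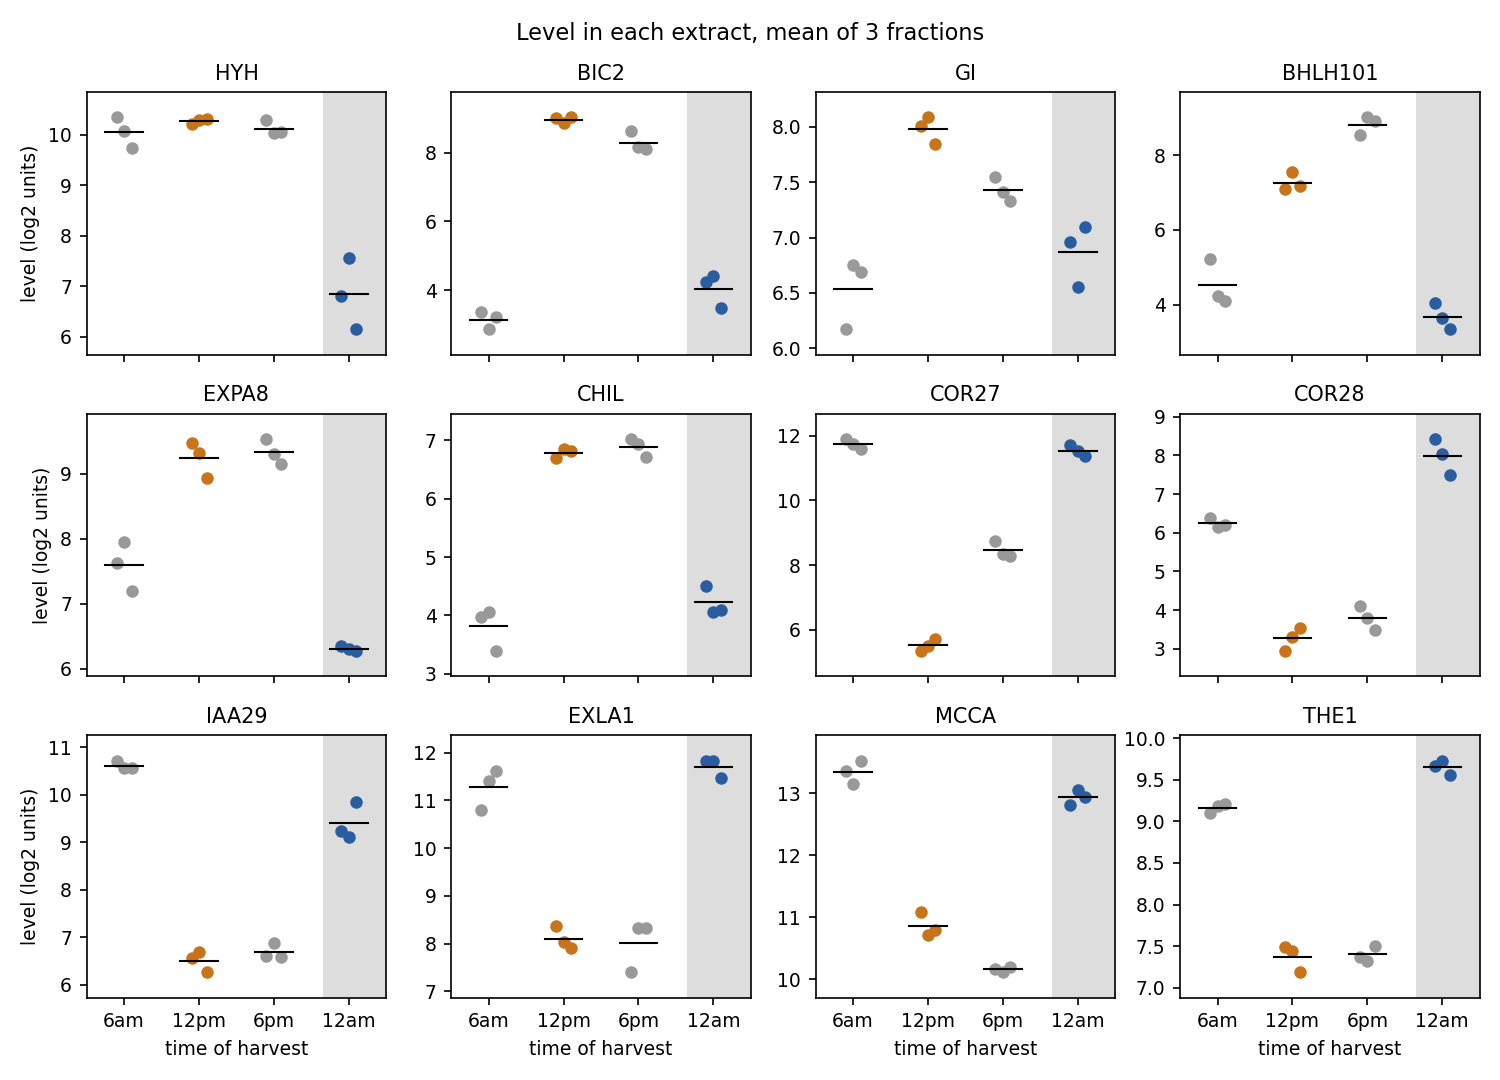
Level of 12 genes (log2 units, vertical axes, each with its own range that does not start at 0) in each extract at the 4 harvest times (horizontal axis). Points are extracts, 3 per time, orange for 12pm and blue for 12am, and bars are means. The grey area is the dark period up to the right edge of the panel, and the dark before 6am is not shaded. The 12pm and 12am points do not overlap in any of the 12 panels, which the choice required of genes named for the size of their difference. HYH stands at 10.06 already at 6am, and COR27 falls to 5.52 at 12pm and stands at 8.46 at 6pm.

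Of 21 listed genes of the iron-deficiency response 4 were measured, of which 3 were higher and 1 was lower at midday. These genes act in a cascade: small peptides and bHLH factors report the iron status, and further bHLH factors switch on uptake and transport. AT1G47400, which encodes the peptide IRON MAN 1, had levels of 9.13, 10.01 and 9.88 in the 12pm extracts, against 4.48, 5.07 and 3.64 in the 12am extracts. The lowest midday extract was more than 4 log2 units above the highest midnight extract, and the fold difference was 38.8 (5.28 ± 0.35, adjusted p = 1.1e-07). BHLH101 (AT5G04150), 1 of the bHLH factors that raise iron uptake genes, was 12.0-fold higher (3.58 ± 0.27), with 7.09, 7.54 and 7.17 at 12pm against 4.04, 3.66 and 3.35 at 12am. PYE (AT3G47640), which represses iron transport and storage genes under deficiency, was 4.28-fold higher (2.10 ± 0.13).

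The factors upstream of these genes did not share 1 direction. bHLH34 (AT3G23210) was 4.14-fold higher at midday, with 7.73, 7.80 and 7.49 at 12pm against 5.70, 5.49 and 5.68 at 12am. bHLH115 (AT1G51070) was 1.42-fold higher (0.50 ± 0.12), a call that ended without replicate 2 (0.45, adjusted p = 0.10). In contrast bHLH121 (AT3G19860), an activator in the same pathway, was 2.67-fold lower (-1.42 ± 0.12), with 9.24, 9.35 and 9.41 at 12pm against 10.72, 10.74 and 10.80 at 12am. Its midnight extracts agreed to within 0.1 log2 units. ILR3 (AT5G54680, -0.44 ± 0.13, adjusted p = 0.016) and bHLH104 (AT4G14410, -0.31 ± 0.11, adjusted p = 0.04) were slightly lower. Leaving out replicate 1, 2 or 3 ended the call of bHLH104 each time (-0.36 to -0.28), and leaving out replicate 1 or 2 that of ILR3 (-0.26 and -0.54). The median of the 4 measured members of the list was 2.84.

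The measured members of the flavonoid and glucosinolate lists, 4 of 17 and 3 of 20 listed, were higher by day. All 4 members of the flavonoid list were called higher. HYH, 1 of these 4, is the light-signalling factor already counted above and not itself a gene of synthesis. CHIL (AT5G05270), a helper protein of chalcone synthesis, had levels of 6.71, 6.84 and 6.82 at 12pm, against 4.51, 4.06 and 4.10 at 12am, 5.94-fold apart (2.57 ± 0.18, adjusted p = 1.7e-07). UGT78D1 and UGT78D2, which add sugars to flavonols, were higher by 0.92 ± 0.25 and 0.48 ± 0.18 on the log2 scale. The call of UGT78D2 (adjusted p = 0.042) ended without any single extract of either time, and that of UGT78D1 ended without replicate 2 (0.91, adjusted p = 0.10). HCT, a shikimate ester enzyme of lignin synthesis, was 1.73-fold higher, and LYC (lycopene cyclase, carotenoid synthesis) 1.80-fold.

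All 3 measured genes of glucosinolate synthesis, the sulfur- and nitrogen-rich defence compounds of the cabbage family, were higher as well, with a median of 1.60. UGT74B1 (AT1G24100), which glucosylates the glucosinolate core, had levels of 7.38, 7.92 and 8.20 at 12pm, against 5.84, 6.03 and 6.54 at 12am (1.69 ± 0.29, adjusted p = 0.0004). BCAT4 (AT3G19710), which starts the chain elongation of methionine, had 9.91, 9.96 and 10.03 at 12pm against 8.51, 8.49 and 8.11 at 12am. Its 3.02-fold difference (1.60 ± 0.45) lost the call without replicate 2 (1.66, adjusted p = 0.07) or replicate 3 (1.43, adjusted p = 0.061). AT2G31790 was 2.36-fold higher (1.24 ± 0.11), and GTR1, a glucosinolate transporter picked with its value in view, 3.08-fold (1.62 ± 0.27). The groups of each of these 4 genes did not overlap, which the choice of GTR1 required. Sulfate assimilation moved the other way in both measured genes: APS3 (ATP sulfurylase) was lower by day (-1.04 ± 0.20, adjusted p = 0.0009), and so was SIR (sulfite reductase, -1.01 ± 0.30). The call of SIR ended without replicate 1 (-0.77) or replicate 2 (-1.09).

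Families of enzymes that modify small molecules had more members higher than lower at midday. Of 12 measured cytochrome P450 enzymes 7 were higher and 0 lower at midday (median 0.47), against a background of 24.2% and 21.8%. CYP71B26 (AT3G26290) was the largest, with 11.16, 10.92 and 10.98 at 12pm against 7.86, 7.63 and 8.05 at 12am, 9.05-fold apart. CYP71B35 of the same subfamily was 4.97-fold higher, and 4 of the 5 members that were not called lay between 0.02 and 0.20. Of 20 UDP-glycosyltransferases 13 were higher and 5 lower (median 0.56). UGT76E11 was 5.70-fold higher and UGT88A1 2.52-fold higher, while UGT85A4 was 8.12-fold lower, with 4.67, 4.93 and 4.71 at 12pm against 7.90, 7.89 and 7.58 at 12am. Of 10 beta-glucosidases 5 were higher, led by BGLU40 (AT1G26560) at 6.94-fold, and 1 was lower (BGLU16, -1.32 ± 0.18). Of 6 glutathione transferases 4 were higher and 0 lower, with GSTU20 at 3.71-fold and GSTU16 at 2.52-fold. These families were collected by gene name with results of these data known.

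**Figure D3:**
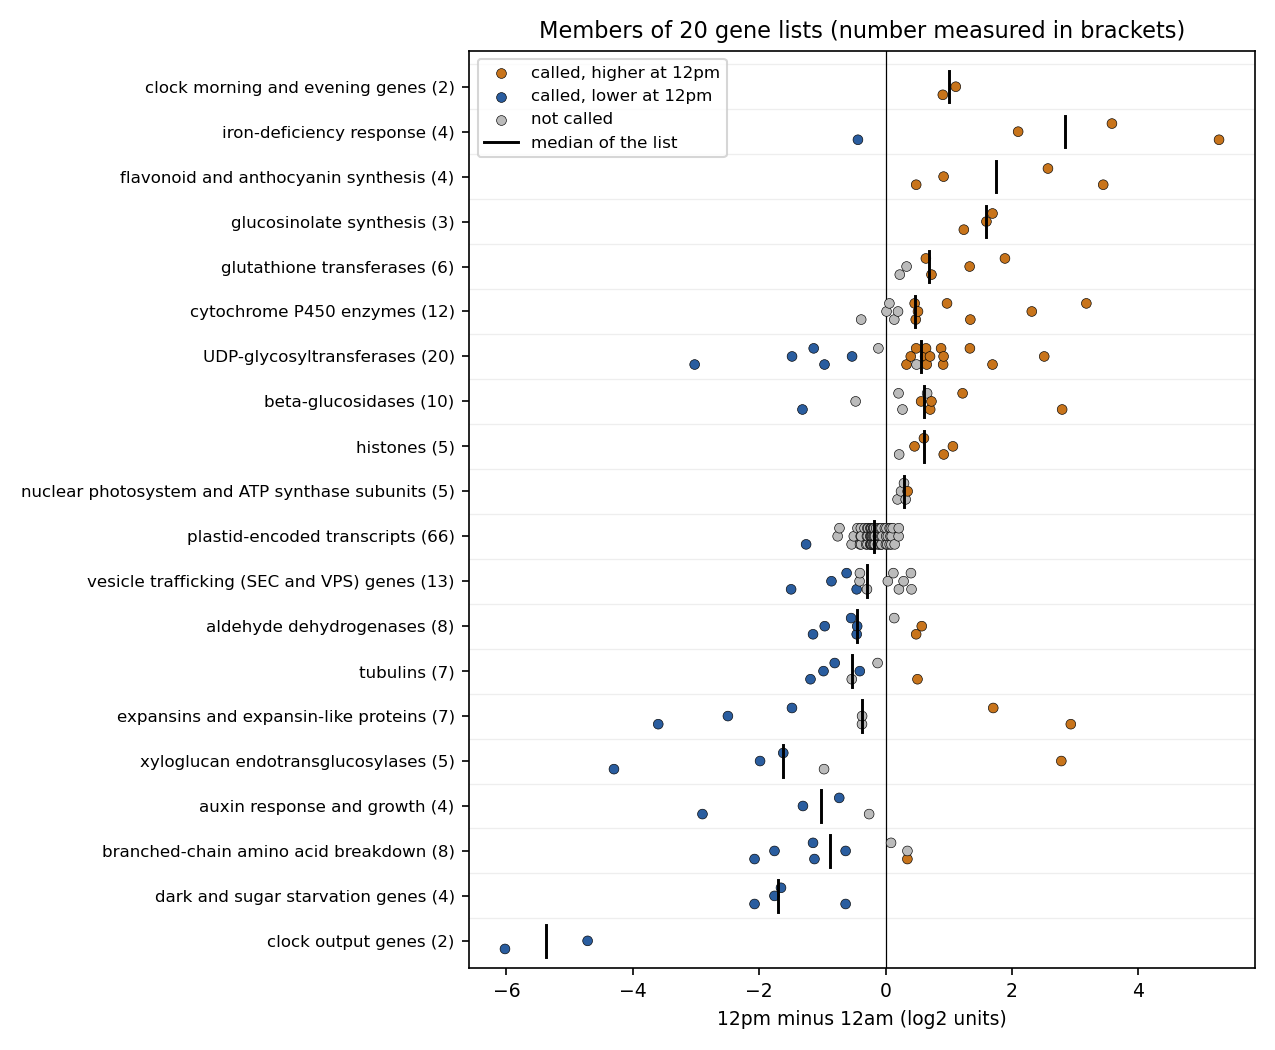
Difference between 12pm and 12am (log2 units, horizontal axis) of the measured members of 20 gene lists (rows, number measured in brackets), 1 point per gene, coloured by call, with the median of each list as a black bar. The iron, flavonoid and glucosinolate lists have medians of 2.84, 1.74 and 1.60, the starvation list one of -1.71, and the 66 plastid-encoded transcripts lie around -0.19. The flavonoid list includes the light-signalling gene HYH.

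Cell wall genes split into a midday set and a midnight set. Expansins loosen the wall without cutting it, and xyloglucan endotransglucosylases (XTH) cut and rejoin its xyloglucan chains. EXPA8 (AT2G40610), an alpha-expansin, had levels of 9.47, 9.32 and 8.93 in the 12pm extracts, against 6.35, 6.30 and 6.27 in the 12am extracts, 7.63-fold apart (2.93 ± 0.19, adjusted p = 9.3e-08). EXPB3, a beta-expansin, was 3.26-fold higher at midday. The 3 expansin-like A genes were lower: EXLA1 (AT3G45970) had 8.37, 8.04 and 7.90 at 12pm against 11.81, 11.83 and 11.46 at 12am, 12.1-fold apart (-3.60 ± 0.26). EXLA2 was 5.64-fold lower and EXLA3 2.79-fold lower, the last with both means under 5 (2.48 at 12pm and 3.96 at 12am). EXPA16 and EXPA20 were not called (-0.37 each).

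Of 5 measured genes with XTH in their symbol, 1 was higher and 3 were lower at midday. EXGT-A3, which belongs to the family under another name, was also called lower and is not counted here. XTH32 (AT2G36870) had levels of 8.44, 8.78 and 8.60 at 12pm, against 6.04, 5.71 and 5.72 at 12am (2.78 ± 0.17, 6.88-fold). XTH33 (AT1G10550) lay at 2.38, 2.43 and 2.49 at 12pm, near the lower end of the scale, against 7.33, 7.04 and 5.82 at 12am (-4.30 ± 0.31). XTH16 was 3.96-fold lower and XTH18 3.07-fold lower, with 12pm means of 4.56 and 3.83, and XTH19 was not called (-0.97 ± 0.41, adjusted p = 0.065), although 7 alternatives called it lower, among them the 12pm and 12am extracts alone (adjusted p = 0.015) and leaving out replicate 1 (-1.15). GH9B8, an endoglucanase of the cellulase family, was 4.93-fold higher at midday, by 2.84 on the log2 scale in the non-polysomal and 1.82 in the large polysomal fraction. Of 11 measured TBL proteins, which acetylate wall polymers, 4 were lower and 1 was higher, with TBL45 at -1.74 ± 0.22 and TBL37 at -1.64 ± 0.22.

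Genes for auxin response and growth were lower at midday in 3 of 4 measured cases. IAA29 (AT4G32280), an Aux/IAA repressor of auxin signalling known for its response to shade, had levels of 6.56, 6.69 and 6.26 at 12pm, against 9.24, 9.11 and 9.86 at 12am. The groups were 7.45-fold apart (-2.90 ± 0.18, adjusted p = 8.6e-08). GH3.3, which conjugates auxin to amino acids, was 2.48-fold lower, a call that ended without replicate 3 (adjusted p = 0.12). HAT2, an auxin-induced homeodomain factor, was 1.66-fold lower, and WES1, another GH3 enzyme, was not called (-0.26 ± 0.21). EXO (EXORDIUM, AT4G08950), a brassinosteroid-induced growth gene picked with its value in view, was 6.54-fold lower, with 5.20, 5.30 and 4.79 at 12pm against 8.19, 8.20 and 7.03 at 12am.

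Both receptor kinases named next, which are known to sense the state of the wall, were picked with their values in view. THE1 (THESEUS1, AT5G54380) had levels of 7.49, 7.44 and 7.19 at 12pm, against 9.66, 9.73 and 9.56 at 12am, 4.85-fold apart (-2.28 ± 0.12, adjusted p = 1.4e-08). FER (FERONIA, AT3G51550), a receptor of RALF peptides, had 6.58, 7.77 and 7.29 at 12pm and 9.22, 9.13 and 8.76 at 12am (-1.82 ± 0.31). Its midday extracts spread by more than 1 log2 unit but stayed below every midnight extract. Of 6 measured RALF-like peptides, RALFL22 was 6.35-fold lower, with 7.42, 7.62 and 7.31 at 12pm against 10.70, 10.20 and 9.46 at 12am. RALFL32 and RALFL34 were higher (1.01 ± 0.19 and 0.73 ± 0.15), and 3 were not called. CLE41 and CLE44, which encode the same peptide signal of vascular stem cells, were higher by 1.66 ± 0.24 and 1.84 ± 0.21. WRKY22, a factor linked to dark-induced leaf ageing, was 6.32-fold lower (-2.66 ± 0.25), with its 12am extracts at 8.31, 8.31 and 8.33.

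Of 22 listed genes that rise when carbon runs short, 4 were measured and all 4 were lower at midday (median -1.71). MCCA (AT1G03090), the biotin subunit of methylcrotonyl-CoA carboxylase in leucine breakdown, had levels of 11.09, 10.72 and 10.79 at 12pm, against 12.81, 13.05 and 12.95 at 12am. The groups were 4.21-fold apart (-2.07 ± 0.14, adjusted p = 1e-07). IVD (isovaleryl-CoA dehydrogenase, AT3G45300), the step before it, was 3.38-fold lower, and AKINBETA1 (AT5G21170), a subunit of the energy-sensing kinase SnRK1, 3.15-fold lower, with 9.87, 9.89 and 10.02 at 12pm against 11.72, 11.60 and 11.43 at 12am. MCCB, the other subunit of the carboxylase, was 1.55-fold lower (-0.63 ± 0.13, adjusted p = 0.0013), a smaller difference that lost the call without replicate 2 (-0.56, adjusted p = 0.055).

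The wider breakdown of branched-chain amino acids had 8 measured genes, of which 5 were lower and 1 was higher (median -0.88). This list was added with results of these data known and shares MCCA, MCCB and IVD with the one above. ALDH6B2, a methylmalonate-semialdehyde dehydrogenase of valine breakdown, was 2.22-fold lower, and ETFQO, which passes the electrons to the respiratory chain, 2.18-fold lower. D2HGDH, which feeds the same electron carrier, was slightly higher (0.35 ± 0.11), and the carrier subunits ETFALPHA and ETFBETA were not called (0.35 ± 0.16 and 0.09 ± 0.11). Of 8 aldehyde dehydrogenases in all, 5 were lower and 2 higher. ALN (allantoinase, AT4G04955), of purine breakdown, was 3.76-fold lower, with 4.75, 4.80 and 4.81 at 12pm against 6.51, 6.73 and 6.85 at 12am; it was picked with its value in view. APL3, a regulatory subunit of the first enzyme of starch synthesis, was 3.68-fold higher, with a 12am mean of 3.27. PWD, a kinase that phosphorylates starch for breakdown, was lower by 0.48 ± 0.17, a call that ended without replicate 2 (-0.47, adjusted p = 0.20) or replicate 3 (-0.33, adjusted p = 0.24).

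Few of the measured photosynthesis genes were called. Of 5 nuclear subunits of the photosystems and the chloroplast ATP synthase, PSAN of photosystem I was called higher (0.35 ± 0.12, adjusted p = 0.027), and this ended without replicate 1 (0.39), 2 (0.45) or 3 (0.21). The other 4 lay between 0.19 and 0.32, and PSBW of photosystem II, the highest of them (adjusted p = 0.055), was called under 9 alternatives, among them cyclic loess (0.33, adjusted p = 0.023). Both measured antenna genes (LHCB4.1 and LHCB4.2) and all 3 Calvin cycle genes (RCA, SBPASE and PRK) were not called in limma, 0 of 5 also at an unadjusted p below 0.05, with differences from -0.34 to 0.08. Their levels were lower at 6am: RCA averaged 12.80 at 6am, 13.48 at 12pm, 13.87 at 6pm and 13.81 at 12am. In chlorophyll synthesis PORB and GSA1 were lower at midday (-0.71 ± 0.17 and -0.72 ± 0.18) and 3 of 5 members were not called; GSA1 lost the call without replicate 2 (-0.66, adjusted p = 0.097).

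Transcripts of the plastid genome gave 1 called member of 66, psbB of photosystem II, which was 2.39-fold lower (-1.26 ± 0.30, adjusted p = 0.0042). Its extracts spread widely, with 7.19, 8.15 and 7.61 at 12pm against 8.49, 9.56 and 8.68 at 12am. The plastid transcript psbT (-0.76) was called lower only under some alternatives, among them the 12pm and 12am extracts alone (adjusted p = 0.034 in limma). The median of the 66 was -0.19, and it was 0.00 when arrays were brought to equal spike-in signal. None of the 5 mitochondrial transcripts was called in limma, and 0 of 5 had an unadjusted p below 0.05. However, nad1 (0.55 ± 0.26, both means under 5) was called higher under 5 alternatives, among them leaving out replicate 3 of 12pm (0.82, adjusted p = 0.019). Labelling started from oligo(dT), so organelle values cover only RNA that this primer reaches.

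Cold-response genes did not move together. COR15A and COR15B, which protect chloroplast membranes in the cold, were 2.61-fold and 2.08-fold higher at midday, while the dehydrin COR47 was 2.02-fold lower. COR15A stood at 11.06, 11.58 and 11.94 at 12pm and at 9.95, 10.12 and 10.36 at 12am, and COR47 at 11.21, 11.13 and 11.38 at 12pm and at 12.09, 12.22 and 12.45 at 12am. Neither pair of groups overlapped. The calls of COR15A and COR15B ended without replicate 2 (1.35 and 1.17) and without replicate 3 (1.28 and 0.81). The zinc-finger gene STZ was not called (-0.74 ± 0.90). Its extracts of 6pm had an SD of 1.50, and the 4 times share 1 estimate of the spread. With the 12pm and 12am extracts alone it was called lower (adjusted p = 0.004).

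Among structural and housekeeping families, 4 of 7 tubulins were lower and 1 was higher at midday (median -0.53). TUB9, a beta-tubulin, had 8.16, 8.62 and 8.58 at 12pm against 9.67, 9.58 and 9.67 at 12am, while the alpha-tubulin TUA6 was higher by 0.51 ± 0.16. Of 5 histone genes 4 were higher and 0 lower, with HTR12, the histone H3 of centromeres, at 1.07 ± 0.18 and HTB1 (histone H2B) at 0.92 ± 0.14. Without replicate 2 the other 2, HTB2 (0.58) and HTB4 (0.43), lost the call. PRL, a subunit of the helicase that opens DNA for replication, was 2.25-fold higher, and the mitotic kinase AUR1 was not called (-0.04). Of 13 genes for vesicle trafficking 4 were lower and 0 higher, led by SEC15B (-1.50 ± 0.18) and VPS20.1 (-0.86 ± 0.11). CRR42, CRR21 and CRR41, of 5 measured genes for chloroplast RNA processing and NDH complex assembly, were higher, by 1.75 ± 0.17, 0.93 ± 0.21 and 1.00 ± 0.22, and CRR21 lost the call without replicate 2 (0.89, adjusted p = 0.057).

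The remaining families had mixed counts. Of 11 ubiquitin-conjugating enzymes 3 were lower and 0 higher, of 11 ubiquitin-specific proteases 4 were higher and 0 lower, and of 10 nuclear RNA polymerase subunits 3 were higher and 0 lower. The 8 autophagy genes had 2 higher and 1 lower (ATG8E, -0.99 ± 0.18), the 13 serine carboxypeptidase-like genes 5 higher and 4 lower, and the 6 tetraspanins 0 higher and 2 lower. Of 8 IQ-domain proteins 1 was lower. Several of these calls ended without replicate 2 of all times. They were those of NRPA1, NRPB7 and NRPB9B (polymerase subunits), UBC19 and UBC37 (conjugating enzymes), UBP16 and UBP26 (proteases), ATG3 and TET7. The call of UBC28 ended without replicate 3.

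Many of the largest differences belonged to loci without a gene symbol. With both means at 5 or more, AT3G22540 was 17.2-fold higher at midday, with 9.01, 9.29 and 9.54 at 12pm against 4.89, 5.15 and 5.50 at 12am. AT3G57020 was 10.7-fold, AT2G27420 8.03-fold, AT2G41250 7.83-fold and AT3G01060 7.78-fold higher. AT3G21670, which carries the synonym NPF6.4 of the nitrate and peptide transporter family, was 7.48-fold higher (2.90 ± 0.19). With a midnight mean under 5, AT1G13650 had 7.49, 7.94 and 8.09 at 12pm, against 2.35, 2.56 and 2.34 at 12am, which is near the lower end of the scale (5.42 ± 0.15). AT1G60590 was 40.4-fold higher, with 9.47, 9.30 and 9.17 at 12pm against 4.05, 4.06 and 3.83 at 12am.

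On the midnight side, AT3G59350 was 12.1-fold lower at midday, with 5.94, 5.81 and 5.70 at 12pm against 9.34, 9.47 and 9.42 at 12am. AT1G22330 was 12.0-fold, AT1G19530 8.43-fold, AT5G14120 7.57-fold, AT4G28085 7.52-fold and AT1G52200 7.34-fold lower. The log2 differences of AT5G25240, AT5G03120 and AT4G21870 were -2.88, -2.82 and -2.80. With a midday mean under 5, AT2G31010 was 14.7-fold lower and AT1G50040 14.3-fold lower. Every 12pm extract of these loci lay on the same side of every 12am extract, as the choice of loci required.

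The difference between 6pm and 6am, also 12 h apart and measured on other extracts, showed how far the pattern held at another pair of times. Of the 3060 probe sets higher at 12pm, 1912 (62.5%) were also higher at 6pm than at 6am and 158 (5.16%) were lower. Of the 2848 lower at 12pm, 1799 (63.2%) were lower at 6pm than at 6am and 165 (5.79%) were higher. In that comparison 57.5% of all probe sets were called, 28.1% higher and 29.4% lower. Across the 12635 probe sets the 2 differences correlated with r = 0.641, a description over probe sets, which are not independent replicates. Of the transcripts that differed at least 2-fold, those higher at 12pm had median levels, relative to each transcript's own mean, of -0.60 at 6am and 0.58 at 6pm. The difference that chose them did not use these 2 times, but the shared spread, the filter and each transcript's own mean did. Those lower at 12pm had 0.46 at 6am and -0.52 at 6pm. Between 12pm and 6pm 5.77% of all probe sets were called, against 54.7% between 6am and 12pm, 44.7% between 6pm and 12am and 30.9% between 12am and 6am.

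**Figure D4:**
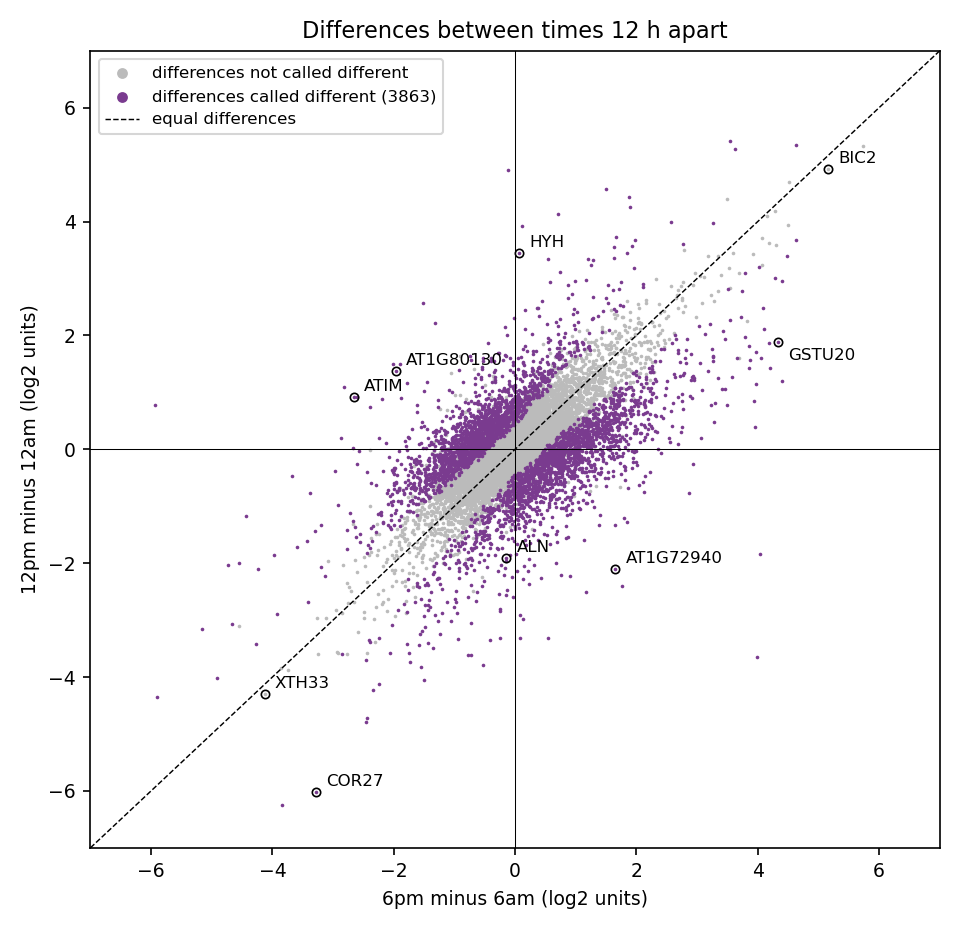
Difference between 12pm and 12am (log2 units, vertical axis) against the difference between 6pm and 6am (log2 units, horizontal axis), 1 point per probe set, with the line of equal differences. The 3863 purple points are those whose 2 differences were called different. BIC2 (AT3G44450) lies near the line at 4.92 and 5.15, while HYH has 3.44 against 0.07.

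The test of the difference between these 2 contrasts called 3863 probe sets (30.6%). By sign and not by size, the 12pm minus 12am contrast was above the 6pm minus 6am contrast in 1938 (15.3%) and below it in 1925 (15.2%). Under equal spike-in signal, which moved the median to -0.36, the test called 41 above and 327 below. Without replicate 2 of all 4 times it called 465. HYH differed by 3.38 ± 0.38 (adjusted p = 0.0001): its mean was 10.06 at 6am, 10.28 at 12pm, 10.13 at 6pm and 6.84 at 12am, so 12am alone was low. ATIM (AT5G52910), the Arabidopsis TIMELESS homologue, had means of 8.20, 6.06, 5.54 and 5.15 at the 4 times, and its contrasts differed by 3.58 ± 0.31. AT1G80130 (3.34) and AT3G62820 (3.12) likewise peaked at 6am. In the other direction AT1G72940 had 6.69 at 6am, 6.98 at 12pm, 8.34 at 6pm and 9.08 at 12am, so that 6pm was above 6am and 12pm below 12am (-3.75 ± 0.37). AT3G60420 (-2.73) had the same order of signs.

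COR27 was low at 12pm and intermediate at 6pm: its means were 11.75 at 6am, 5.52 at 12pm, 8.46 at 6pm and 11.54 at 12am, and the contrasts differed by -2.74 ± 0.22 (adjusted p = 1.2e-05). LrgB, a glycolate and glycerate transporter of the chloroplast envelope that serves photorespiration, was not called at midday against midnight (0.49 ± 0.20) but had 7.14 at 6am and 10.41 at 6pm (-2.79 ± 0.28). MCCA had means of 13.35 at 6am, 10.86 at 12pm, 10.15 at 6pm and 12.94 at 12am, and its contrasts differed by 1.12 ± 0.19. IVD and ETFQO differed likewise, by 1.02 ± 0.22 and 1.10 ± 0.19, while AKINBETA1 was not called (0.41 ± 0.19, adjusted p = 0.11). EXPB3, GSTU20 and BCAT4 had their highest mean at 6pm (8.26, 10.01 and 10.72), and their contrasts differed by -2.27, -2.44 and -2.07.

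The fractions were also tested separately. Tested in 1 fraction at a time, 3932 probe sets (31.1%) were called in the non-polysomal, 4878 (38.6%) in the small polysomal and 4952 (39.2%) in the large polysomal fraction. Of the 3060 probe sets higher in the mean of the fractions, 1406 (45.9%) were called in each of the 3, and of the 2848 lower ones 1337 (46.9%). These probe sets were chosen on the mean of the same fractions, so nothing about the likeness of the fractions is read from the counts. EXLA1 had differences of -3.60, -3.55 and -3.64 in the non-polysomal, small polysomal and large polysomal fraction, and MCCA -2.03, -2.05 and -2.14.

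Polysome loading was the large polysomal value of an extract less its non-polysomal value, and a change in it was called for 218 probe sets (1.73%), 136 (1.08%) up and 82 (0.649%) down at 12pm relative to 12am. Under equal spike-in signal, which moved the median loading change to -0.60, 2 were called up and 152 down, so the directions given here are relative to the other transcripts. Without replicate 1, 2 or 3 of all times it was 67, 2 and 6. UGT78D2 was the clearest case among the listed genes: its loading was 1.38 at 12pm and 0.07 at 12am, a change of 1.31 ± 0.20 (adjusted p = 0.0063). Its level was higher at midday by 1.22 in the large polysomal fraction but by -0.09 in the non-polysomal fraction. COR15A gained 1.30 ± 0.25 (1.64 at 12pm, 0.35 at 12am) and GSA1 1.18 ± 0.24 (1.10 at 12pm, -0.08 at 12am). The lower level of GSA1 at midday was a difference of -1.31 in the non-polysomal and -0.13 in the large polysomal fraction. AT5G57370 gained most, 1.76 ± 0.21 (adjusted p = 0.001), followed by AT3G09480 (1.66), AT3G27200 (1.63) and DAL1 (1.56), an E3 ubiquitin ligase of the chloroplast outer envelope also known as SP1. Loading fell for AT1G05380 by 1.90 ± 0.29, for AT1G34110 by 1.67 ± 0.37, for AT5G57760 by 1.42 ± 0.28 and for AT3G56080 by 1.35 ± 0.22. AT5G03120 had the largest level change among those with a called loading, and its loading changed by -1.05 ± 0.25. The 8 loci named for their loading alone all lost the call without replicate 2 of all times, each with its direction kept.

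**Figure D5:**
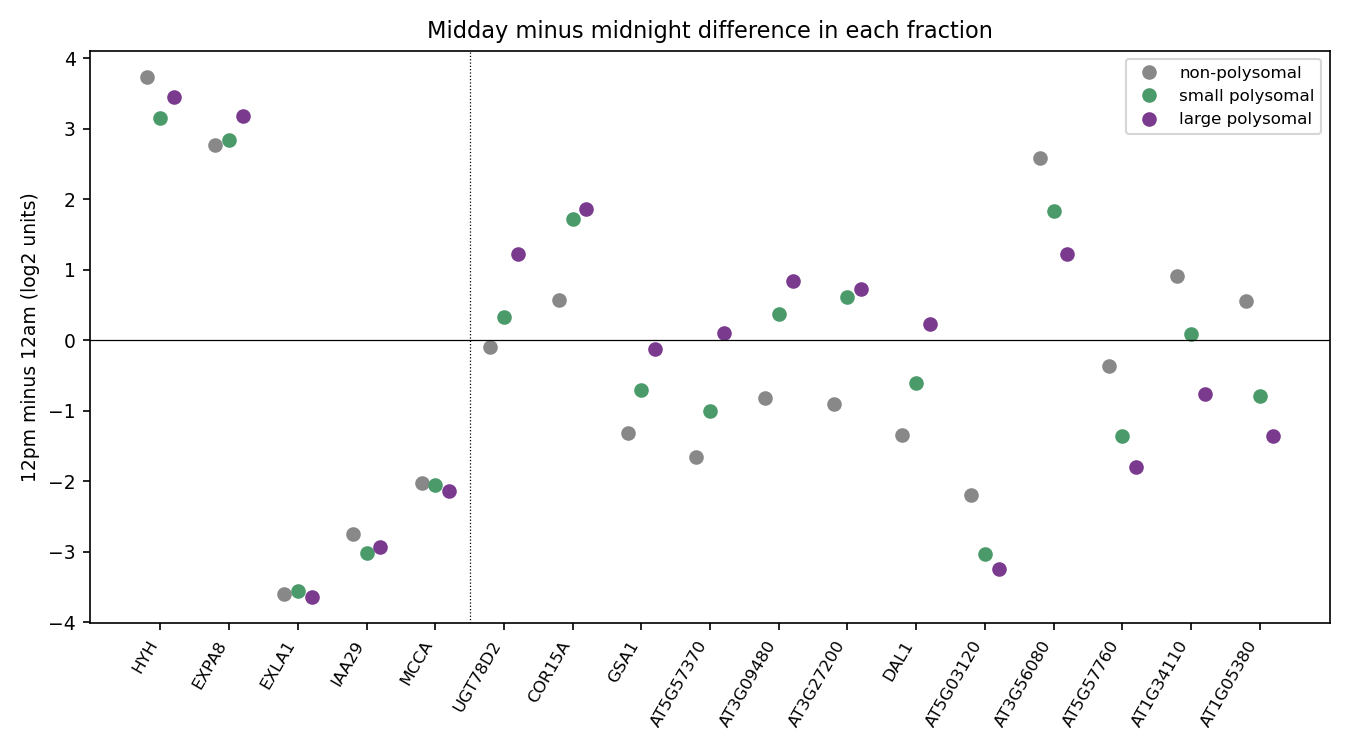
Difference between 12pm and 12am (log2 units, vertical axis) in each of the 3 fractions for 17 genes (horizontal axis). The 5 genes left of the dotted line have no called change of loading, and the 12 on the right have a called change of loading, such as UGT78D2 at -0.09 in the non-polysomal and 1.22 in the large polysomal fraction.

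How many transcripts are called, and how the calls split, depends on the scale on which arrays are set equal. The deposited values place the arrays on 1 common distribution, so a change in the total amount of mRNA cannot be seen in them. The 27 poly(A) spike-in probe sets averaged 7.64, 6.90 and 5.73 at 12pm in the non-polysomal, small polysomal and large polysomal fraction, and 8.05, 7.21 and 5.57 at 12am. When the arrays were shifted to equal spike-in signal, the median difference of all probe sets moved to 0.21, and 1467 were called, 1007 higher and 460 lower. The higher ones made up 68.6% of the calls, against 51.8% on the deposited scale. Of the 5908 probe sets called on the deposited scale, 1456 were called there too.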

How the data were processed

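RNA of 12 extracts, each split into 3 gradient fractions, was hybridised to 36 Affymetrix ATH1 arrays after oligo(dT) priming and biotin labelling, per the labels' protocols. The deposited values are log2 expression values made by the authors with GCRMA; R 3.1 and affy 1.42.3 are named in the submitters' processing notes. GCRMA corrects background by probe sequence, applies quantile normalization and summarises probes, so total mRNA per array is set equal. A spike-in value is therefore a level relative to the other RNA.

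The 64 control probe sets were removed, and 12635 of 22746 with a value of at least 5 on at least 3 arrays were kept. Fractions of an extract were averaged. limma 3.58.1 in R 4.3.3 was fitted to the 12 extract means with 4 group means (8 residual degrees of freedom), and p-values were adjusted by Benjamini-Hochberg over all 12635, called below 0.05. Loading and the difference from 6pm minus 6am were fitted likewise. On simulated data with 200 changed probe sets among 12635, the midday to midnight test recovered 82% of log2 changes of 1 and 97% of 2, with 5 false calls. The simulated noise was independent between extracts, and far fewer probe sets changed than the 5908 called in the data. These rates therefore check the code and are not rates for the data. Precision is limited by how many extracts there are.

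Of the kept probe sets 6824 named 1 gene, 263 several and 5548 none; where a gene had several, the probe set with the greatest average signal was used. Symbols came from the platform annotation, updated through the TAIR10.1 annotation. The 4 loci AT4G33980, AT1G47400, AT3G44450 and AT5G52660, without a symbol there, are called by their usual names. In 447 kept probe sets the type marks probes that match several transcripts. Named genes were the 12 largest rises and falls with both means at 5 or more and no overlap of extracts, the 4 largest each with a mean under 5, of each list the 3 smallest p or all of up to 6, and the 4 largest each way for the other tests; further genes are marked as picked with their value in view. Lists and rules were chosen with earlier results of these data known. Alternatives covered replication, filter, scaling, variance model, fraction and left-out replicates. Promoter motifs were not analysed here. Figures used Python 3.11.15 and matplotlib 3.10.9.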

Additional observations from a re-analysis of the deposited data

Results flagged for a closer look

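For 12 flagged genes the midday to midnight difference was not the same in the large polysomal as in the non-polysomal fraction. This rests on limma's test of that difference with Benjamini-Hochberg adjustment over all probe sets. The difference of differences was 1.764 for AT5G57370, 1.657 for AT3G09480, 1.629 for AT3G27200, 1.565 for DAL1, 1.313 for UGT78D2, 1.297 for COR15A and 1.181 for GSA1 on the log2 scale. It was -1.905 for AT1G05380, -1.673 for AT1G34110, -1.424 for AT5G57760, -1.355 for AT3G56080 and -1.051 for AT5G03120. AT5G57370 was lower at 12pm than at 12am by -1.66 in the non-polysomal fraction and differed by 0.10 in the large polysomal fraction. AT1G05380 differed by 0.55 and -1.35 in the same fractions, and AT3G56080 by 2.58 and 1.23. These genes come from the 217 named values and from the 218 probe sets called for loading, and the count of such calls falls to 2 without replicate 2 of all times. GH9B8, named above for its level, also had a called change of loading (-1.02 ± 0.23, adjusted p = 0.038 in limma).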

How the results depend on the processing

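The 5908 calls of the level were within 1.5 times that number under every alternative tried except equal spike-in signal (1467, with 1007 higher and 460 lower), leaving out replicate 2 of all times (3345) and the non-polysomal fraction alone (3932, with 2028 higher). Leaving out replicates gave 3345 to 5504 calls, 1726 to 2869 higher and 1619 to 2670 lower. The calls of loading, 218 in all with 136 higher and 82 lower, moved under more of the alternatives: they came to 54 (36 and 18) with the 12pm and 12am extracts alone, 129 (77 and 52) with a plain t statistic, 101 (65 and 36) with both polysomal fractions averaged, 2 higher and 152 lower under equal spike-in signal, and 52 lower with trended robust eBayes. Leaving out replicates gave 2 to 88 loading calls, 1 to 55 higher and 1 to 38 lower. The difference from 6pm minus 6am, 3863 calls, gave 6210 (3226 and 2984) with 36 arrays taken as independent, 368 (41 and 327) under equal spike-in signal and 465 (202 and 263) without replicate 2; leaving out replicates gave 465 to 4047, 202 to 1996 higher and 263 to 2051 lower. The cause was not tested. With the replicate block the level had 6517 calls, loading 147 (49 lower) and the difference from 6pm minus 6am 4590, and 8 named genes gained the call (PSBW, PYK10, nad1, TET8, iqd32, RALFL33, RALFL24 and WRKY20). Deviations of same-numbered extracts of 12pm and 12am correlated with r of 0.102, 0.218 and -0.080, not every one above 0.1, so the numbers were not taken to pair the extracts; over all times 13 of 18 same-numbered pairs and 3 of 36 others exceeded 0.1. Of the alternatives for named genes 4906 kept direction and call, 329 lost the call, 85 gained it and 2 reversed: in the non-polysomal fraction alone PWD had 0.0056 and UGT78D2 -0.093. List medians moved by less than the spread between replicates in 1013 cases and by more in 101. The fit of the 12pm and 12am extracts alone was not run for the difference from 6pm minus 6am, which needs all times. Levels near the lower end of the scale limit folds: 900 called probe sets had a mean under 5 at one of the times.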

Other observations

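Directions were compared between neighbouring genes in the annotation order. Among 1917 measured pairs of adjacent genes, both were called in 420, and 259 of these (61.7%) had the same direction. At 2 genes apart the share was 57.7%, at 5 genes apart 52.3% and at 10 genes apart 49.9% (169 of 339). These shares are a description over pairs that share genes, with no test. AT1G19530 and its neighbour AT1G19540 were both lower at 12pm than at 12am (-3.07 and -2.69), and AT4G33660 and AT4G33666 both higher (2.20 and 2.05). AT5G03120 (-2.82) and its neighbour AT5G03130 (2.35) went opposite ways.

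Several named genes outside the lists differed strongly and were picked with their values in view. SNZ (SCHNARCHZAPFEN), an AP2-type repressor of flowering, had levels of 7.34, 7.66 and 7.63 at 12pm, against 5.64, 4.67 and 3.83 at 12am. VTC4, an enzyme of ascorbate synthesis, was higher at 12pm by 1.77 on the log2 scale, and the thionin THI2.2 by 1.81. OBE1 and ULT1, both regulators in meristems, were lower at 12pm by limma, with log2 differences of -2.12 and -2.18.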
